A study of Homo sapiens with 6 samples.

Results

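Of the 6641 genes in the deposited expression table, 272 carried a symbol that names a gene after its neighbour. In 196 of them the symbol ended in -AS, with or without a number, for a gene antisense to the one named, and in 76 it ended in -DT, for a divergent transcript. Within the table they were taken by symbol alone, but the rule by which genes were listed is not known. The choice was made with earlier results of these data known. The gene of the stem symbol, such as ATP13A3 for ATP13A3-DT, is called the partner here, and 124 of the 272 genes had a partner in the same table. By Ensembl identifier, 269 of the 272 had an entry in the GENCODE 29 annotation, where 186 were typed as antisense, 49 as lincRNA, 26 as processed transcript and 3 as bidirectional promoter lncRNA. The annotation goes against the noncoding label for 4 genes typed as protein-coding (DIP2C-AS1, DOCK8-AS1, KCNJ5-AS1 and KRT10-AS1), and SLC44A3-AS1 was typed as a transcribed processed pseudogene.

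Antisense genes are transcribed from the strand opposite to another gene and often run through its exons or introns. Divergent transcripts start near the promoter of a protein-coding gene and run away from it, because many mammalian promoters, above all those rich in CpG, load RNA polymerase II in both directions. The upstream RNA is usually short-lived: early polyadenylation sites, the Integrator complex and the nuclear exosome end it and break it down, and the genes with a -DT symbol are those whose RNA lasts long enough to be annotated. Some antisense RNAs are known to act on their neighbour, in cis, and others act elsewhere or have no known role.

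The study asked how histone lysine crotonylation relates to resistance to EGFR tyrosine kinase inhibitors, the drugs given for lung cancers driven by the epidermal growth factor receptor. It compared 3 libraries of HCC827_Er, the resistant line, with 3 of HCC827, the parental line, an established human non-small cell lung cancer line whose EGFR gene carries an activating deletion. The labels give no drug, dose or time for either line and do not say how HCC827_Er was raised, or whether it is 1 clone. Nor do they tie the 3 libraries of a line to separate cultures, so the p-values below measure the spread between these libraries alone, which may be technical.

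Expression was given as FPKM, read fragments scaled to the length of the transcript and to the mapped fragments of the library. Over the whole table the values added up to between 184633 and 190415 FPKM in the HCC827_Er libraries and between 222927 and 224211 FPKM in the HCC827 libraries, and the depth in reads is unknown. All 3 listed lung epithelium markers were higher in HCC827_Er, where their summed level was 351.26 to 369.95 FPKM, against 32.8 to 35.11 FPKM in HCC827. The 4 listed of 5 epithelial carcinoma markers summed to 2518 to 2601 FPKM in HCC827_Er and 2162 to 2257 FPKM in HCC827, but they did not move together: EPCAM, KRT19 and CDH1 were called higher (EPCAM at 296.7 FPKM in HCC827_Er and 30.1 FPKM in HCC827), while KRT8 averaged 1025 FPKM in HCC827_Er and 1744 FPKM in HCC827 and was not called. Of 3 fibroblast markers, 2 were listed and summed to 9.33 to 11.52 FPKM in HCC827_Er and 2.12 to 3.09 FPKM in HCC827. They went opposite ways: COL1A1 was called higher, with 10.09 FPKM in HCC827_Er and 0.75 FPKM in HCC827. LUM was lower, with 0.53 FPKM in HCC827_Er and 1.81 FPKM in HCC827, and was not called. Of 3 leukocyte markers, 2 were listed, mostly as CD68, and summed to 116.84 to 126.29 FPKM in HCC827_Er and 171.24 to 176.98 FPKM in HCC827. The other of these 2, LAPTM5, was called higher, with 4.49 FPKM in HCC827_Er and 0.903 FPKM in HCC827. CDH5, the 1 listed of 3 endothelial markers, had 0.52 to 0.75 FPKM in HCC827_Er and was at 0 in HCC827. The part of these cell types in the results was not tested, and in bulk RNA fewer cells of a type and less RNA per cell cannot be told apart.

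Each difference below is HCC827_Er minus HCC827 on the log2(FPKM + 1) scale, where the change of a low gene comes out too small, and each adjusted p is from limma over 5276 genes with the Benjamini-Hochberg method. A gene was called when its adjusted p was under 0.05 and its difference at least 1 in size. Genes needed 1 FPKM in at least 3 of the 6 libraries, which 197 of the 272 reached (142 -AS and 55 -DT). Of these 197, 57 had every library of 1 line under 1 FPKM, so they passed through the line in which they were high. The other 75 were not tested, and their mean in the higher line was 0.143 to 1.65 FPKM, with a median of 0.590 FPKM.

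More of the antisense and divergent genes were lower in HCC827_Er than were higher. Among the 197 tested, 24 were called higher (12.2%), 56 were called lower (28.4%) and 117 were not called. Of the called genes, 36 had every library of 1 line under 1 FPKM, so they entered the test through their high line alone. Over all tested genes of the table, 24.7% were called higher and 19.7% lower. The median difference was -0.63 over the antisense and divergent genes and 0.43 over all tested genes, and 36.0% and 51.4% had a positive difference. With the values as deposited, the order held for both suffixes. Of 142 -AS genes, 20 were called higher and 39 lower, and of 55 -DT genes, 4 were called higher and 17 lower. The 374 other long noncoding genes had 92 called higher (24.6%), a share near that of all tested genes, and 108 called lower (28.9%), a share near that of the antisense and divergent genes, with a median of -0.18. The levels of these groups differed too: the median of the mean in the higher line was 4.47 FPKM over the tested antisense and divergent genes, 4.06 FPKM over the other long noncoding genes and 11.55 FPKM over all tested genes, and the part of the level in the counts was not tested.

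The split moved with the scaling of the libraries, while the antisense and divergent genes stayed below the table's own share of higher calls. With median-ratio rescaling, which moved the median of all genes by -0.30, 17 were called higher and 86 lower, beside 17.0% higher and 31.4% lower over all genes. With each library scaled to the same sum, which moved that median by 0.21, 42 were called higher and 43 lower, beside 34.6% and 15.0%. The order of the -AS genes turned with this scaling, with 36 called higher and 30 lower, while -DT genes had 6 higher and 13 lower. The table itself was made of genes that differ. Its lines did not overlap in 96.1% of listed genes, nor did they in 257 of the 272 antisense and divergent genes. Among tested genes the lines were apart in 97.1% of the table and in 188 of the 197 antisense and divergent genes, and 98.3% of tested genes had an adjusted p under 0.05. The 5 tested antisense and divergent genes that did not were ANKRD42-DT, GATD1-DT, PANK2-AS1, RAB30-DT and ZNF436-AS1, with ANKRD42-DT at 6.40 FPKM in HCC827_Er and 6.46 FPKM in HCC827.

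**Figure D1:**
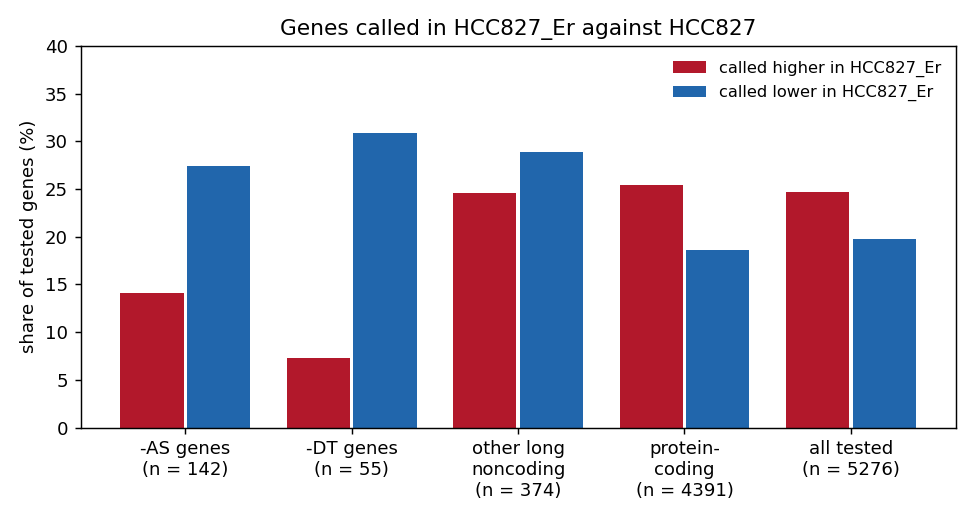
Share of tested genes called higher (red) or lower (blue) in HCC827_Er against HCC827, in percent, for -AS genes, -DT genes, other long noncoding genes, protein-coding genes and all tested genes. The -DT genes had 7.27% higher and 30.9% lower calls, the -AS genes 14.1% and 27.5%, and all tested genes 24.7% and 19.7%.

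Where both genes of a pair were tested, they mostly differed in the same direction. Both genes were tested in 74 pairs, 54 with an -AS and 20 with a -DT gene, and in 66 of them the 2 differences had the same sign. In these pairs 28 antisense or divergent genes and 34 partners had a positive difference. Of the tested antisense and divergent genes, 111 had no listed partner and 12 had a listed partner that was not tested. Both genes of a pair had to be in a table of genes that differ, so the agreement covers these pairs alone. Both genes were called the same way in 32 pairs, 12 higher and 20 lower. Of all tested genes taken singly, 44.4% were called, 24.7% higher and 19.7% lower. That share is of single genes in either direction, so it is no background for 2 genes called together. The antisense or divergent gene alone was called in 11 pairs, the partner alone in 12 and neither in 17, and 2 pairs were called in opposite directions. Across the 74 pairs the 2 differences had a Pearson r of 0.75 and a Spearman coefficient of 0.75, a description only, since all pairs share the same 6 libraries and overlapping genes can share reads. Of the 32 same-way pairs, 23 (6 higher and 17 lower) were called the same way under both rescalings as well.

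**Figure D2:**
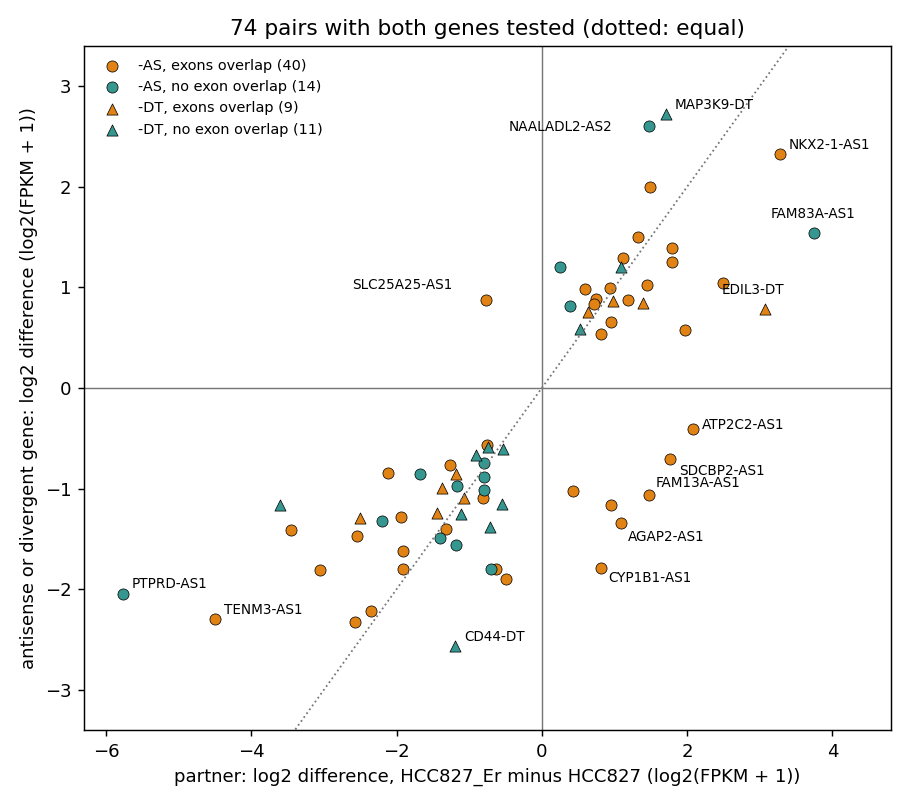
Log2 difference (HCC827_Er minus HCC827, log2(FPKM + 1)) of the partner on the horizontal axis and of the antisense or divergent gene on the vertical axis, for 74 pairs; circles are -AS and triangles -DT genes, orange where exons overlap and teal where they do not, and the dotted line marks equal differences. In all, 66 pairs lie at the lower left or upper right, and the 8 outside them are all orange circles.

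The starts of head-to-head pairs lie close together, so the DNA around them is shown for 5 such pairs. These had starts within 1000 bases and the largest difference of the divergent or antisense gene: MAP3K9-DT, CD44-DT, MBTPS1-DT, ZNF778-DT and SAP30L-AS1. Of these genes, MAP3K9-DT and SAP30L-AS1 were called higher (SAP30L-AS1 not with median-ratio rescaling) and the others lower. In each pair the partner's difference had the same sign, but MBTPS1 and SAP30L were not called and the lines overlapped for SAP30L. Each sequence below runs from 250 bases before to 50 bases after the start of the named gene, on its own strand, from RefSeq on GRCh38.p14, and capitals mark GGGCGG (the GC box), CCAAT and TATAAA on either strand. The windows of SAP30L-AS1 and SAP30L share 274 bases, those of MBTPS1-DT and MBTPS1 200 bases, and those of ZNF778-DT and ZNF778 149 bases, so 1 window stands for each of these pairs. RefSeq places the start of MAP3K9-DT inside MAP3K9, 729 bases from its start, where GENCODE 29 has the 2 genes 671 bases apart and head to head. It places the starts of CD44-DT and CD44 1139 bases apart, where GENCODE 29, by which the pairs were chosen, has 838 bases.
MAP3K9-DT, chr14:70808534-70808833, plus strand: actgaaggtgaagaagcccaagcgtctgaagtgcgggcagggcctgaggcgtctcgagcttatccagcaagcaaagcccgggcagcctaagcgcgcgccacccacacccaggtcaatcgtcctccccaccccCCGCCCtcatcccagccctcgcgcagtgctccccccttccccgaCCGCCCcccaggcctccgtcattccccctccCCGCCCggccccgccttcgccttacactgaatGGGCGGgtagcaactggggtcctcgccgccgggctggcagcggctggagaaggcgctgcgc
MAP3K9, chr14:70809464-70809763, minus strand: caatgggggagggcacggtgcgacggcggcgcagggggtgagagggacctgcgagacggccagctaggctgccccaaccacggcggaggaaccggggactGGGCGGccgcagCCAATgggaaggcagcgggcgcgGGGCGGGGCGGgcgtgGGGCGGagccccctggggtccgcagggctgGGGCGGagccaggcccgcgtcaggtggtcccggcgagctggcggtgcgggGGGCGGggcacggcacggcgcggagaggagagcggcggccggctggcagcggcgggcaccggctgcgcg
CD44-DT, chr11:35137983-35138282, minus strand: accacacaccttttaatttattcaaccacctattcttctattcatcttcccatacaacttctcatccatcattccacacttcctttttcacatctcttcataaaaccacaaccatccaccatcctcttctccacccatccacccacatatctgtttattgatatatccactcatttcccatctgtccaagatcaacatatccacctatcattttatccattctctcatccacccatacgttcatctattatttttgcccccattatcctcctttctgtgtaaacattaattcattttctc
CD44, chr11:35138921-35139220, plus strand: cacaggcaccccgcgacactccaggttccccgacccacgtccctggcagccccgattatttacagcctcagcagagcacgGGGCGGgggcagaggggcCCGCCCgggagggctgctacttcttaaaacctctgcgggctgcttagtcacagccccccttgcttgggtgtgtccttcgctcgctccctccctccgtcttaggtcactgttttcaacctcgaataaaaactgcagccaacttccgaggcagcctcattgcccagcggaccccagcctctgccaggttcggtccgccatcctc
MBTPS1-DT, chr16:84116793-84117092, plus strand: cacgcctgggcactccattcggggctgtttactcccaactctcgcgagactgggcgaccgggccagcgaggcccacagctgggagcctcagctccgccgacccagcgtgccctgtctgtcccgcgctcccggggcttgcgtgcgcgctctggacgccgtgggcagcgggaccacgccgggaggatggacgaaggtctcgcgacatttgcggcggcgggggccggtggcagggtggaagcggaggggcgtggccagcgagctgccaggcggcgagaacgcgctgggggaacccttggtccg
ZNF778-DT, chr16:89217604-89217903, minus strand: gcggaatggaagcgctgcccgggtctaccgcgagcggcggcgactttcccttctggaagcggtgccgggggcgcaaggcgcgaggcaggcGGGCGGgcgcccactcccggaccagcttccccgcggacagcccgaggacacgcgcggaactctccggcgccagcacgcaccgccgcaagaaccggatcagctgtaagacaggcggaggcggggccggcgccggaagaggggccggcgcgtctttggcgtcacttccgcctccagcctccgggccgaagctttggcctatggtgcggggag
SAP30L-AS1, chr5:154445773-154446072, minus strand: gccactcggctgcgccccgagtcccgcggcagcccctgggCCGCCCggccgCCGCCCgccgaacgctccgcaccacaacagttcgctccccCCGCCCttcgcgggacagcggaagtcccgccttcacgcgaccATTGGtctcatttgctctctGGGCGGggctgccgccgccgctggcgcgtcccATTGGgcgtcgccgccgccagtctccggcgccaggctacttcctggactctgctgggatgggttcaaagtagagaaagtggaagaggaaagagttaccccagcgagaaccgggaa

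The window of CD44-DT was unlike the others, with 37.7% G and C and a ratio of observed to expected CpG of 0.357, against 63.3% and 0.626 for CD44. It held none of the 3 motifs, nor did that of MBTPS1-DT. The windows of MAP3K9-DT and MAP3K9 held GGGCGG 4 and 6 times and had 70.3% and 80.3% G and C, and that of SAP30L-AS1 held it 4 times beside CCAAT 2 times. RefSeq promoters were matched by symbol for 206 of the 272 genes. GGGCGG was found on either strand in 54.4% of them, in 66.7% of the 60 -DT and 49.3% of the 146 -AS promoters, against 45.0% of all 35116 promoters of the same length. TATAAA was in 9.71% of the 206 and in 11.5% of all, and CCAAT in 37.4% and 34.6%. The median observed to expected CpG ratio was 0.875 in -DT promoters, 0.678 in -AS promoters and 0.579 in all promoters. The 206 were taken as 1 promoter per symbol, while the 35116 were not reduced in that way, so the sets are not alike. A match is a description of letters, not a binding site.

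Where the partner is a regulator of transcription, NKX2-1 and HMGA2 were called higher with their antisense gene. ZEB1 was called lower with its antisense gene, and TOX and ZNF778 were called lower with their divergent genes. TRIM8, a ubiquitin ligase set beside them here, was called lower with TRIM8-DT. NKX2-1-AS1 (ENSG00000253563, chr14:36519278-36523016, plus strand, GRCh38), which crosses the start of NKX2-1, had 5.40, 5.25 and 4.25 FPKM in HCC827_Er, against 0.14, 0.21 and 0.22 FPKM in HCC827. NKX2-1, the factor that directs lung epithelial identity, had 68.13, 68.64 and 60.35 FPKM in HCC827_Er, against 6.52, 6.38 and 4.90 FPKM in HCC827. Both were higher in each HCC827_Er library than in any HCC827 library, with differences of 2.32 (SE 0.12, adjusted p = 2.12e-07) for NKX2-1-AS1 and 3.27 (SE 0.11, adjusted p = 1.89e-08) for NKX2-1. Of the exon bases of NKX2-1-AS1, 22.6% overlap those of NKX2-1, and without strand information reads there cannot be told apart.

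Among the other regulators, ZEB1-AS1 and ZEB1, the repressor of E-cadherin, were both called lower, with differences of -1.29 and -1.94. TOX-DT and TOX, an HMG-box factor known from T cell development, were both lower, at -1.24 and -1.44. ZNF778-DT and the zinc finger gene ZNF778 were both lower, at -1.25 and -1.12, but ZNF778 had -0.95 without HCC827 replicate 1 and -0.82 without HCC827_Er replicate 2, and lost its call with sum rescaling. HMGA2-AS1 and HMGA2, an architectural chromatin protein of embryonic and tumour cells, were both higher, at 1.02 and 1.45, a call that HMGA2-AS1 lost with median-ratio rescaling. TRIM8-DT, whose annotated exons all lie within exons of TRIM8, and TRIM8, a ubiquitin ligase, had -1.09 and -1.08, a call that both lost with sum rescaling. TRIM8-DT also lost it without HCC827 replicate 1 (-0.87), HCC827_Er replicate 2 (-0.999) or HCC827_Er replicate 3 (-0.99, with TRIM8 at -0.99). ID2-AS1 was called lower at -1.80, while ID2, an inhibitor of basic helix-loop-helix factors, had -0.63 and was not called. Neither gene was called for TBX2-AS1 and TBX2 (-0.88 and -0.79), ELF3-AS1 and the epithelial factor ELF3 (0.54 and 0.82), PCGF3-AS1 and the Polycomb gene PCGF3 (0.88 and 0.74), or ATXN1-AS1 and ATXN1 (0.81 and 0.39). ZMIZ1-AS1 was called lower at -1.01, beside -0.79 for ZMIZ1, a PIAS-like coregulator, and had -0.88 without HCC827 replicate 2 and -0.94 without HCC827_Er replicate 2. Its call was lost with sum rescaling too.

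Among partners at the cell surface and in the matrix, PTPRD and TENM3 had the largest differences, and their antisense genes were at or near 0 in HCC827_Er. CD44-DT (ENSG00000255521, chr11:35132655-35138032, minus strand, GRCh38) had 0.40, 0.47 and 0.40 FPKM in HCC827_Er, against 5.88, 7.60 and 9.17 FPKM in HCC827. CD44, the hyaluronan receptor that starts 838 bases away on the other strand, had 203.02, 192.68 and 207.67 FPKM in HCC827_Er, against 465.51, 454.19 and 461.75 FPKM in HCC827. Both were lower in each HCC827_Er library than in any HCC827 library, and the difference was -2.57 (SE 0.15, adjusted p = 5.4e-07) for CD44-DT and -1.19 (SE 0.046, adjusted p = 4.28e-08) for CD44, which lost its call with sum rescaling. With 1 FPKM added to each gene, the log2 ratio of CD44-DT to CD44 was -7.15 ± 0.095 in HCC827_Er and -5.77 ± 0.29 in HCC827 (SD, n = 3 each). The two-sided exact permutation p was 0.10, the smallest that 3 against 3 libraries allow. The added 1 makes this ratio less negative, above all in HCC827_Er, where CD44-DT was low. All log2 ratios within pairs below were taken in the same way.

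TENM3-AS1 (ENSG00000177822, chr4:181874438-182145249, minus strand, GRCh38) was listed at 0 in all 3 HCC827_Er libraries, against 3.71, 3.78 and 4.28 FPKM in HCC827. TENM3, a teneurin of neuronal adhesion, was listed at 0 in all 3 HCC827_Er libraries too, against 20.26, 21.60 and 23.04 FPKM in HCC827. Neither had a signal in the resistant line, so no fold change is given, and both were called lower (adjusted p = 9.36e-08 and 3.1e-09). PTPRD-AS1 had 0.01, 0 and 0 FPKM in HCC827_Er, against 2.64, 3.64 and 3.19 FPKM in HCC827. PTPRD, a receptor tyrosine phosphatase, had 0.01, 0 and 0.02 FPKM in HCC827_Er, against 58.69, 44.33 and 61.17 FPKM in HCC827, so both were close to silent in the resistant line. Their annotated starts lie 1754590 bases apart and they share no exon bases. Whether unspliced PTPRD RNA gave reads at PTPRD-AS1 was not tested, and the strand handling is unknown. ADAMTS9-AS1 had 0.01, 0 and 0 FPKM in HCC827_Er, against 2.15, 1.89 and 3.80 FPKM in HCC827. ADAMTS9, a matrix metalloprotease, was called lower but kept 2.14, 2.46 and 3.46 FPKM in HCC827_Er, against 29.55, 27.57 and 30.59 FPKM in HCC827.

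THBS1-AS1 had 0.42, 0 and 0.49 FPKM in HCC827_Er, against 4.85, 5.13 and 4.93 FPKM in HCC827. THBS1, the matrix glycoprotein thrombospondin, had 12.65, 9.63 and 8.27 FPKM in HCC827_Er, against 57.84, 51.29 and 57.75 FPKM in HCC827. Both genes were lower in each HCC827_Er library, by -2.22 and -2.36 on the log2 scale, but 78.1% of the exon bases of THBS1-AS1 lie in exons of THBS1 and their reads cannot be told apart there. NECTIN3-AS1 and the adhesion gene NECTIN3 were both lower, at -1.49 and -1.40, and ITGB8-AS1 and integrin ITGB8 were both lower, at -1.47 and -2.55. C1QTNF1-AS1 and the secreted C1QTNF1 were both lower as well, at -1.56 and -1.18. The opposite direction was seen for ITGB2-AS1 and ITGB2, the beta chain of leukocyte integrins, with 1.39 and 1.79, and for SPINT1-AS1 and SPINT1, an inhibitor of epithelial serine proteases, with 1.25 and 1.79, where SPINT1-AS1 lost its call with median-ratio rescaling. EDIL3-DT had 1.50, 1.42 and 1.53 FPKM in HCC827_Er, against 0.38, 0.37 and 0.58 FPKM in HCC827, a difference of 0.79 that was not called. EDIL3, an integrin ligand of the matrix whose start lies 366 bases from that of EDIL3-DT, had 24.93, 27.48 and 26.47 FPKM in HCC827_Er, against 2.25, 2.34 and 2.12 FPKM in HCC827, and was called higher at 3.08.

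Among partners in signalling and the cytoskeleton, MAP3K9 was called higher with its divergent transcript, which had the larger difference of the 2. MAP3K9-DT (ENSG00000259153, chr14:70810205-70815403, plus strand, GRCh38) had 48.93, 47.82 and 55.52 FPKM in HCC827_Er, against 6.81, 7.73 and 6.07 FPKM in HCC827. MAP3K9, a mixed-lineage kinase upstream of JNK, had 18.95, 18.49 and 18.72 FPKM in HCC827_Er, against 5.61, 4.37 and 5.20 FPKM in HCC827. Both were higher in each HCC827_Er library than in any HCC827 library, with differences of 2.72 (SE 0.10, adjusted p = 3.24e-08) for MAP3K9-DT and 1.71 (SE 0.10, adjusted p = 5.84e-07) for MAP3K9. MAP3K9-DT exceeded its protein-coding partner per length in both lines, with 258.2% to 296.6% of the FPKM of MAP3K9 in HCC827_Er and 116.7% to 176.9% in HCC827. With 1 FPKM added to each gene, the log2 ratio of MAP3K9-DT to MAP3K9 was 1.39 ± 0.11 in HCC827_Er and 0.38 ± 0.28 in HCC827 (SD, n = 3 each). The two-sided exact permutation p was 0.10. In GENCODE 29 MAP3K9-DT shares no exon bases with any gene.

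RASSF8-AS1 had 0.51, 0.87 and 1.49 FPKM in HCC827_Er, against 9.35, 9.18 and 7.49 FPKM in HCC827. RASSF8, a Ras-association protein, had 2.99, 2.31 and 3.26 FPKM in HCC827_Er, against 22.48, 19.07 and 24.23 FPKM in HCC827. Both were lower in each HCC827_Er library, by -2.33 and -2.57 on the log2 scale, and 0.929% of the exon bases of RASSF8-AS1 overlap RASSF8. BCAR3-AS1 had 30.37, 8.12 and 5.62 FPKM in HCC827_Er, against 1.95, 2.64 and 1.77 FPKM in HCC827. BCAR3, an adaptor of integrin and growth factor signalling, had 41.39, 43.70 and 42.54 FPKM in HCC827_Er, against 14.06, 14.61 and 14.67 FPKM in HCC827. The lines did not overlap for either gene, but HCC827_Er replicate 1 carried much of the difference of BCAR3-AS1, which was 2.00 with all libraries (SE 0.49, adjusted p = 0.00351) and 1.33 without that library.

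Of the other pairs of this kind, FAM83A-AS1 and FAM83A, which feeds growth factor signals into the MAPK pathway, were both higher, at 1.54 and 3.74. AFDN-DT and AFDN, an adherens junction scaffold, were both higher, at 1.20 and 1.09, a call that AFDN lost with median-ratio rescaling. FMNL1-DT and the formin FMNL1 were both lower, at -1.29 and -2.50, as were STARD13-AS and STARD13, a GTPase-activating protein, at -1.40 and -1.32. CABP1-DT and the calcium-binding CABP1 were both lower, at -1.16 and -3.61, with CABP1 listed at 0 in all 3 HCC827_Er libraries, against 10.98, 9.95 and 12.88 FPKM in HCC827. SNX10-AS1 and the sorting nexin SNX10 were both lower, at -1.41 and -3.46. The partner alone was called lower for ARHGAP29-AS1 and ARHGAP29, a GTPase-activating protein (-0.85 and -1.68), and for NEXN-AS1 and the actin-binding NEXN (-0.84 and -2.12). RBPMS-AS1 alone was called in its pair, at -1.10 beside -0.82 for the RNA-binding RBPMS, and had -0.99 without HCC827_Er replicate 3, with its call lost under sum rescaling as well. BAIAP2-DT and BAIAP2, an adaptor of actin remodelling, had 0.59 and 0.53, and neither was called.

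**Figure D3:**
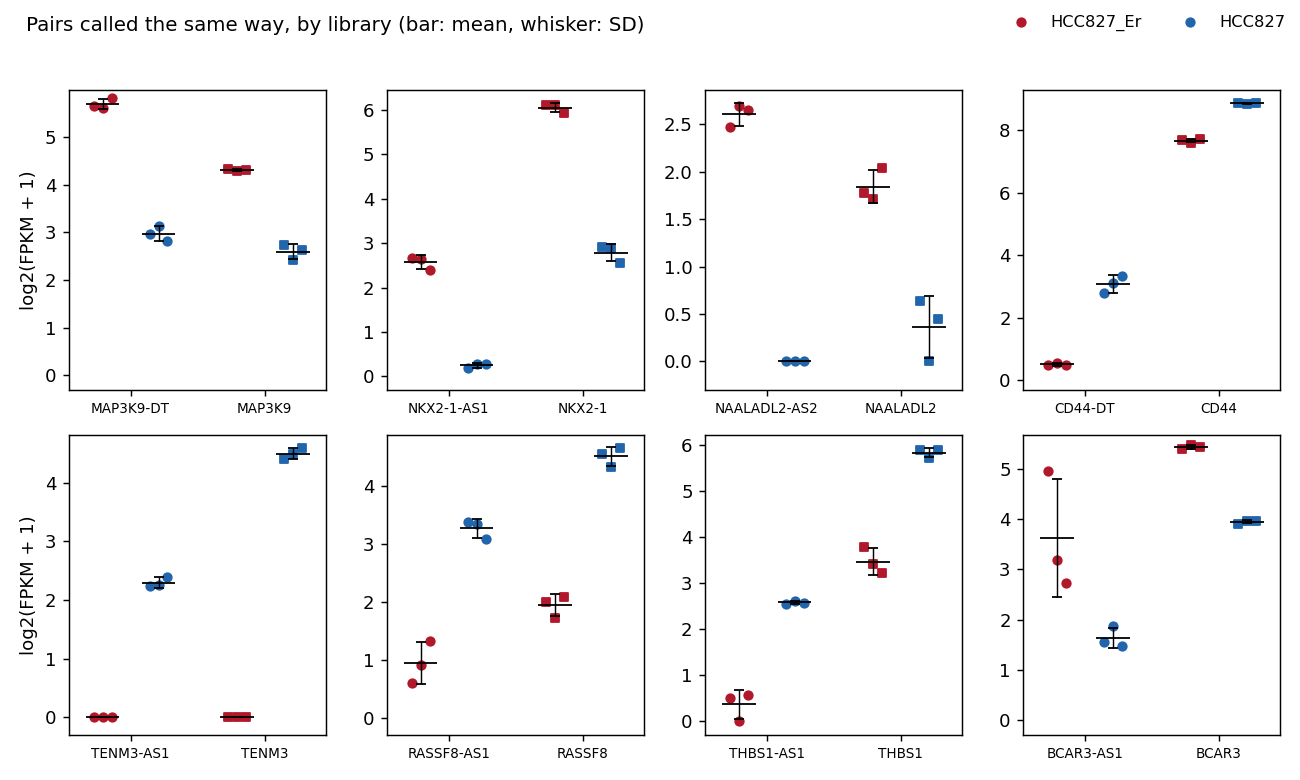
Level of the antisense or divergent gene (circles) and its partner (squares) in each library, as log2(FPKM + 1), for 8 pairs called the same way; HCC827_Er is red, HCC827 is blue, bars are means and whiskers SD over 3 libraries. The lines do not overlap for any of the 16 genes, and for BCAR3-AS1 HCC827_Er replicate 1 stands far above the other two.

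Of partners in metabolism and transport, ALDH1A3 and HILPDA were called higher with their antisense gene and HSD11B1 lower with its own. ALDH1A3-AS1 and ALDH1A3, which makes retinoic acid, were both higher, at 1.05 and 2.49, although ALDH1A3-AS1 had 0.99 without HCC827 replicate 2, 0.94 without HCC827 replicate 3 and 0.96 without HCC827_Er replicate 3, and lost its call with median-ratio rescaling. HILPDA-AS1 and HILPDA, a lipid droplet protein induced by hypoxia, were both higher, at 1.50 and 1.33, and HILPDA lost its call with median-ratio rescaling. They are the 1 pair annotated on the same strand. Of the exon bases of HILPDA-AS1, 28.1% overlap HILPDA, 68.0% overlap AC010655.3 on the same strand and 96.1% overlap some other gene, so its value is uncertain. HSD11B1-AS1 and HSD11B1, which regenerates cortisol, were both lower, at -1.32 and -2.20. SLC2A1-DT had 0.85 and was not called, while SLC2A1, the glucose transporter GLUT1, was called higher at 1.39. ATP13A3-DT had 1.14, 1.31 and 0.94 FPKM in HCC827_Er, against 2.70, 2.69 and 3.18 FPKM in HCC827, a difference of -0.86 that was not called. ATP13A3, a polyamine transporter, had 48.83, 54.86 and 53.55 FPKM in HCC827_Er, against 113.49, 120.01 and 128.15 FPKM in HCC827, and was called lower at -1.19. Both were lower in every HCC827_Er library than in any HCC827 library, and sum rescaling ended the call of ATP13A3 while median-ratio rescaling added one for ATP13A3-DT. DHRS4-AS1 had 0.88 and was not called, while DHRS4 was called higher at 1.19, though not with median-ratio rescaling. DHRS4 is a carbonyl reductase with near-identical copies, so its reads are uncertain. MBTPS1-DT and MAN1B1-DT were called lower alone, at -1.39 and -1.15, beside -0.71 for MBTPS1, the protease that activates sterol-responsive factors, and -0.55 for MAN1B1, a mannosidase of protein quality control. SLC44A3-AS1 was called lower at -1.80, beside -0.70 for SLC44A3. Neither gene was called for CBR3-AS1 and the carbonyl reductase CBR3 (0.99 and 0.93), CERS6-AS1 and the ceramide synthase CERS6 (0.98 and 0.59), FUT8-AS1 and the fucosyltransferase FUT8 (0.66 and 0.96), ODC1-DT and ODC1 of polyamine synthesis (-0.66 and -0.91), or PCCA-DT and PCCA of propionyl-CoA breakdown (-0.61 and -0.54).

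The pairs left fall in no one group. NAALADL2-AS2 (ENSG00000226779, chr3:175234861-175271096, minus strand, GRCh38), within NAALADL2 but with no exon bases shared, had 4.54, 5.50 and 5.30 FPKM in HCC827_Er and was listed at 0 in all 3 HCC827 libraries. NAALADL2, a peptidase-like gene, had 2.42, 2.27 and 3.11 FPKM in HCC827_Er, against 0.56, 0 and 0.36 FPKM in HCC827, so the antisense gene stood above its host in the resistant line. Both were called higher (adjusted p = 6.54e-08 for NAALADL2-AS2 and 4.35e-05 for NAALADL2). C12orf75-AS1 had 0, 0.67 and 0.69 FPKM in HCC827_Er, against 4.73, 3.51 and 3.61 FPKM in HCC827. C12orf75 had 37.24, 39.15 and 37.12 FPKM in HCC827_Er, against 144.81, 148.09 and 141.70 FPKM in HCC827, and both were called lower. HLA-F-AS1 and HLA-F, an MHC class I gene of a family with near-identical members whose reads are uncertain, were both higher, at 1.29 and 1.12, and HLA-F lost its call with median-ratio rescaling. CCDC90B-AS1 was called lower at -1.90, beside -0.49 for CCDC90B, whose start lies 279 bases away. SAP30L-AS1 was called higher at 1.20, though not with median-ratio rescaling, while SAP30L had 0.25 with an adjusted p of 0.355 and overlapping lines (7.08, 9.89 and 12.18 FPKM in HCC827_Er, against 6.77, 12.04 and 5.76 FPKM in HCC827). The partner alone was called for C10orf95-AS1 (0.58 beside 1.98), CCDC183-AS1 (-0.77 beside -1.27) and TMEM123-DT (-0.99 beside -1.37). Neither gene was called for DDX19A-DT (-0.58 beside -0.74 for the RNA helicase DDX19A), NRSN2-AS1 (-0.75 beside -0.80), PSMB8-AS1 (0.83 beside 0.72 for PSMB8, an immunoproteasome subunit), FAM111A-DT (0.86 beside 0.99) and TMEM161B-DT (0.76 beside 0.64).

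In 8 pairs the antisense gene and its partner had differences of opposite sign. In 7 of them the antisense gene was lower in HCC827_Er than in HCC827, while its partner was higher. AGAP2-AS1 (ENSG00000255737, chr12:57726271-57728356, plus strand, GRCh38) had 40.71, 35.32 and 34.96 FPKM in HCC827_Er, against 96.67, 90.65 and 98.98 FPKM in HCC827. AGAP2, a GTPase-activating protein that also enhances PI3-kinase and AKT signalling, had 8.32, 6.40 and 9.34 FPKM in HCC827_Er, against 4.15, 3.14 and 2.50 FPKM in HCC827. The lines did not overlap for either gene, and the differences were -1.35 (SE 0.074, adjusted p = 3.48e-07) and 1.09 (SE 0.18, adjusted p = 0.000314), although 57.7% of the exon bases of AGAP2-AS1 lie in exons of AGAP2. FAM13A-AS1 (ENSG00000248019, chr4:88709789-88730103, plus strand, GRCh38) had 1.23, 1.42 and 1.29 FPKM in HCC827_Er, against 3.62, 3.56 and 4.31 FPKM in HCC827. FAM13A, a gene with a GTPase-activating domain linked to lung function, had 22.11, 22.95 and 20.51 FPKM in HCC827_Er, against 7.79, 6.99 and 6.94 FPKM in HCC827. These were the 2 pairs called in opposite directions, with -1.06 for FAM13A-AS1 and 1.47 for FAM13A. Both calls rest on values near the size limit: without HCC827 replicate 3, AGAP2 had 0.95 and FAM13A-AS1 had -0.99, so no pair was left, and without HCC827_Er replicate 3, AGAP2 had 0.98 and 1 pair was left. With median-ratio rescaling AGAP2 lost its call, and with sum rescaling FAM13A-AS1 did. Under each rescaling 2 pairs were still called in opposite directions, because another pair came in.

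CYP1B1-AS1 (ENSG00000232973, chr2:38073447-38231651, plus strand, GRCh38), the one with the highest mean of the tested antisense and divergent genes, had 125.77, 123.93 and 127.49 FPKM in HCC827_Er, against 444.63, 450.65 and 412.32 FPKM in HCC827. CYP1B1, a cytochrome P450 of estrogen and polycyclic hydrocarbon metabolism, had 8.23, 9.10 and 9.25 FPKM in HCC827_Er, against 4.65, 4.22 and 4.88 FPKM in HCC827. CYP1B1-AS1 was called lower at -1.78 (SE 0.050, adjusted p = 8.15e-09) and CYP1B1 had 0.82 (SE 0.10, adjusted p = 6.25e-05), which with sum rescaling passed the size limit. The antisense gene had 1362% to 1528% of the FPKM of CYP1B1 in HCC827_Er and 8449% to 10679% in HCC827. ATP2C2-AS1 had 2.04, 1.67 and 2.20 FPKM in HCC827_Er, against 2.97, 3.12 and 2.71 FPKM in HCC827, a difference of -0.41. ATP2C2, a secretory pathway calcium pump, had 14.26, 12.92 and 13.52 FPKM in HCC827_Er, against 1.16, 3.38 and 3.35 FPKM in HCC827, and was called higher at 2.08. SDCBP2-AS1 had 7.36, 6.14 and 5.19 FPKM in HCC827_Er, against 10.39, 16.22 and 7.11 FPKM in HCC827, where its ranges overlapped and its difference was -0.70. Median-ratio rescaling called SDCBP2-AS1 lower. SDCBP2, a PDZ protein of the syntenin family, had 5.94, 5.37 and 4.41 FPKM in HCC827_Er, against 0.73, 0.87 and 0.86 FPKM in HCC827, and was called higher at 1.77.

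ZNF232-AS1 had 5.12, 7.12 and 5.03 FPKM in HCC827_Er, against 14.12, 13.25 and 14.56 FPKM in HCC827, and was called lower at -1.16, though not with sum rescaling. ZNF232, a zinc finger gene, had 25.10, 28.47 and 26.64 FPKM in HCC827_Er, against 14.06, 11.94 and 13.92 FPKM in HCC827, a difference of 0.96 that was not called. SERTAD4-AS1 had 3.94, 4.02 and 3.28 FPKM in HCC827_Er, against 9.26, 8.27 and 8.29 FPKM in HCC827, and was called lower at -1.02 (-0.97 without HCC827 replicate 1 and -0.95 without HCC827_Er replicate 3), a call also lost with sum rescaling. SERTAD4 had 4.58, 3.94 and 5.45 FPKM in HCC827_Er, against 3.84, 3.41 and 2.37 FPKM in HCC827, a difference of 0.44 that was not called. SLC25A25-AS1 was the 1 of the 8 with a positive difference, 0.88, beside -0.77 for SLC25A25, a mitochondrial ATP-magnesium carrier, and neither was called. The log2 ratio of antisense gene to partner did not overlap between the lines in any of the 8 pairs, each with the smallest possible two-sided exact permutation p of 0.10. This is no separate test, since the pairs were picked for their opposite signs. Where neither gene of such a pair overlaps between the lines, the ratio cannot overlap either. In all 8 the exons overlap, by 2.96% to 64.3% of the exon bases of the antisense gene, and the starts lie 1248 to 401609 bases apart.

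**Figure D4:**
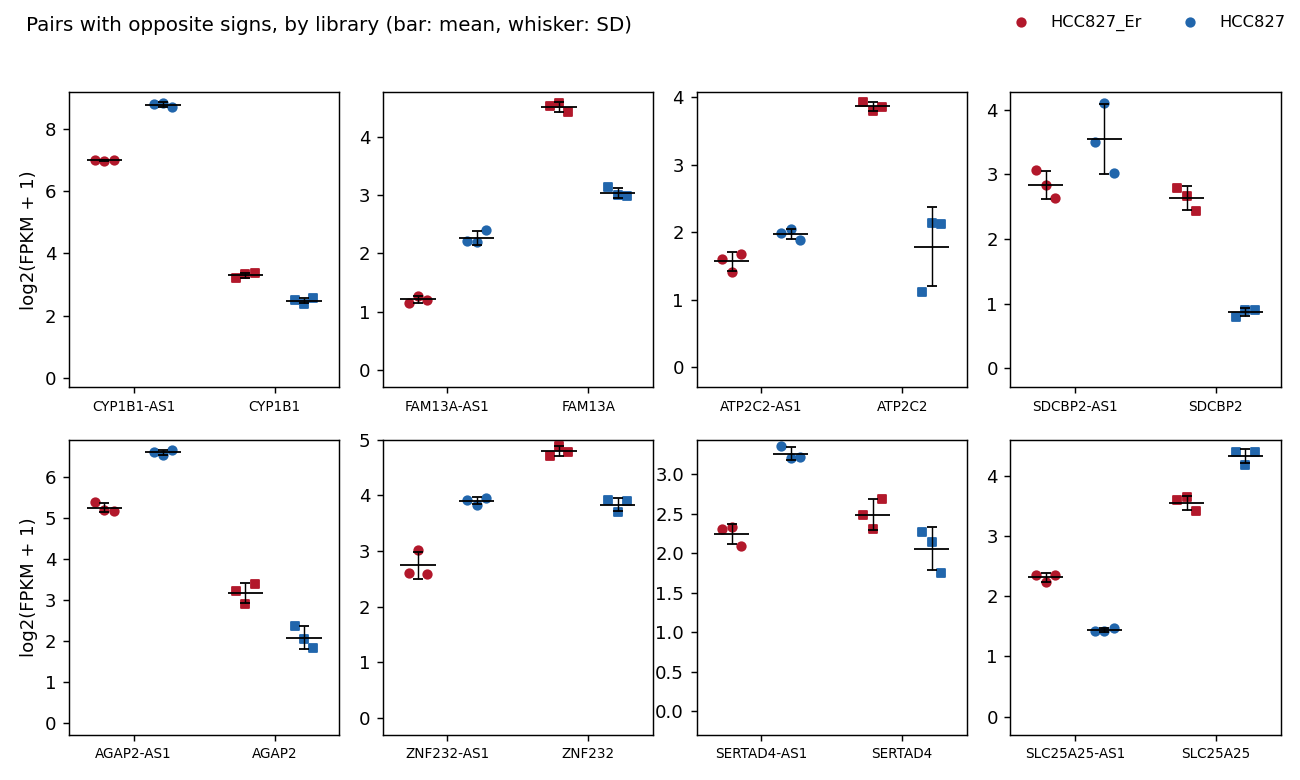
Level of the antisense gene (circles) and its partner (squares) in each library, as log2(FPKM + 1), for the 8 pairs with opposite signs; HCC827_Er is red, HCC827 is blue, bars are means and whiskers SD over 3 libraries. In 7 pairs the mean of the antisense gene is lower in HCC827_Er while that of the partner is higher, and SLC25A25-AS1 shows the reverse.

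The pairs were also described by their arrangement. The -AS genes with a listed partner lay mostly across it: 87 of 93 overlapped it on the opposite strand, and the median distance between starts was 11659 bases. Of the 31 -DT genes with a listed partner, 17 were head to head without overlap and 14 overlapped it on the opposite strand, with a median of 267 bases between starts. Among the 74 pairs with both genes tested, all 24 with starts within 1000 bases of each other had the same sign, as did 42 of the 50 farther apart. The far pairs split by exon overlap: all 13 that share no exon bases had the same sign, with a median gap of 0.83 between the 2 differences. The median gap between the 2 differences of a pair was 0.26 in the near pairs and 0.58 in all the far ones. All 25 pairs that share no exon bases in this annotation had the same sign, as did 41 of the 49 whose exons overlap. The 12 head-to-head pairs with no overlap all had the same sign, with a median gap of 0.23, and in 4 of them both genes were called the same way. These are counts over few pairs, and whether near and far pairs, or pairs with and without exon overlap, differ was not tested.

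**Figure D5:**
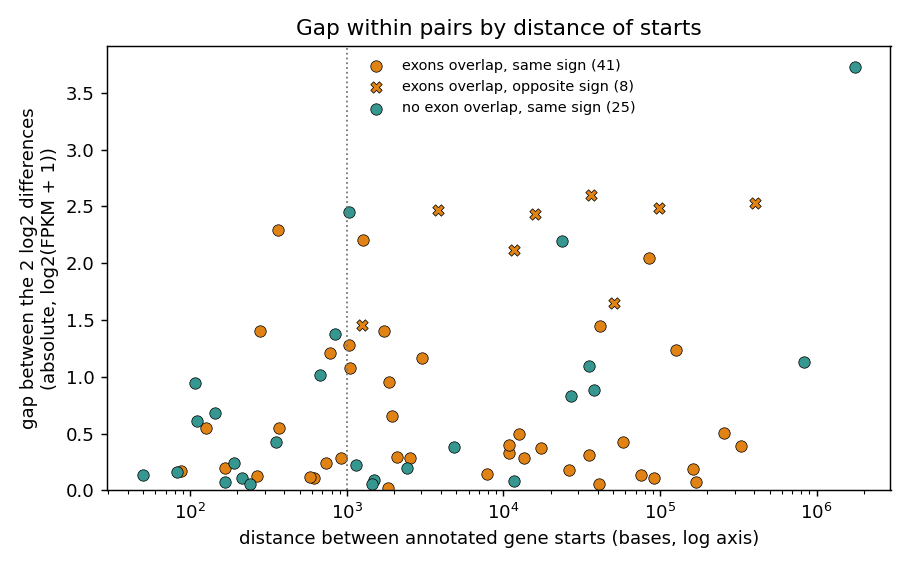
Absolute gap between the log2 differences of the antisense or divergent gene and its partner (vertical axis, log2(FPKM + 1)) against the distance between their annotated starts in bases (horizontal axis, log scale), for 74 pairs; crosses mark opposite signs, orange marks overlapping exons and the dotted line stands at 1000 bases. All 8 crosses lie to the right of the line, and the median gap is 0.26 to its left and 0.58 to its right.

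The antisense or divergent gene was usually the lower of the pair per length. It had less FPKM than its partner in both lines in 56 of the 74 pairs and more in both lines in 10, and its median level was 15.0% of the partner's in each line. The partner had the larger difference in 40 pairs and the antisense or divergent gene in 34. With 1 FPKM added to each gene, the log2 ratio within the pair did not overlap between the lines in 41 of the 74 pairs and overlapped in 33. Of the 41, 19 had a higher and 22 a lower ratio in HCC827_Er, each with the smallest possible exact permutation p of 0.10. The 41 include the 8 pairs picked out by their opposite signs. Of the uncalled genes in these pairs, 11 passed the size limit in at least 1 fit without 1 library, with values of 1.01 to 1.23 in size. Rescaling added calls as well. Among others, median-ratio rescaling called TMEM123-DT, ARHGAP29-AS1, NEXN-AS1, NRSN2-AS1 and TBX2-AS1 lower. Sum rescaling called CBR3-AS1, CERS6-AS1, PCGF3-AS1, PSMB8-AS1, FAM111A-DT, DHRS4-AS1 and SLC25A25-AS1 higher.

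In 32 further pairs the partner was tested while the antisense or divergent gene was too low. The partner was called in 23 of them, 8 higher and 15 lower, beside 24.7% higher and 19.7% lower over all tested genes. The line with the higher mean was the same for both genes in 21 of these 23, and the exceptions were IER5L-AS1 and RNF217-AS1. DPP4-DT had a mean of 1.12 FPKM in HCC827_Er and 0.15 FPKM in HCC827, where DPP4, a dipeptidyl peptidase of the cell surface, had 72.9 and 21.6 FPKM. TPM1-AS had 0.11 FPKM in HCC827_Er and 1.07 FPKM in HCC827, where tropomyosin TPM1 had 51.5 and 265.7 FPKM.

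Of the called genes, 35 had no tested partner, 11 higher and 24 lower. FAM222A-AS1 had 6.99, 6.61 and 6.63 FPKM in HCC827_Er, against 0.16, 0.15 and 0 FPKM in HCC827, the largest positive difference of all antisense and divergent genes at 2.81 (SE 0.11, adjusted p = 4.77e-08). Its partner FAM222A was listed but too low to test. DIAPH2-AS1 had 6.68, 5.60 and 3.44 FPKM in HCC827_Er and was listed at 0 in all 3 HCC827 libraries. HHLA3-AS1 had 5.44, 3.48 and 4.21 FPKM in HCC827_Er, against 0.16, 0.45 and 0 FPKM in HCC827. For these 3 genes the lines lay far apart, with next to no signal in the parental line. The other called genes of this kind named by size were SGSM2-AS1, with 4.71 ± 0.41 FPKM in HCC827_Er and 0.84 ± 0.32 FPKM in HCC827, ADGRD1-AS1, with 4.04 ± 0.56 and 0.85 ± 0.53 FPKM, and GPC1-AS1, with 2.98 ± 0.31 and 0.52 ± 0.25 FPKM (SD, n = 3 each). Of the exon bases of SGSM2-AS1, 40.4% overlap SGSM2.

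DYNLRB2-AS1 had 0, 0.25 and 0.10 FPKM in HCC827_Er, against 11.64, 11.83 and 11.86 FPKM in HCC827, the largest negative difference at -3.52 (SE 0.12, adjusted p = 2.04e-08). ERBIN-DT was listed at 0 in all 3 HCC827_Er libraries, against 4.72, 4.19 and 7.58 FPKM in HCC827. MSC-AS1 had 0.10, 0 and 0 FPKM in HCC827_Er, against 3.53, 3.18 and 3.77 FPKM in HCC827. In these 3 genes the parental line held nearly all of the signal. LHFPL3-AS2 had 0.04, 0 and 0 FPKM in HCC827_Er, against 1.91, 3.63 and 3.64 FPKM in HCC827. NQO1-DT had 0.55, 0.43 and 0.70 FPKM in HCC827_Er, against 4.97, 3.86 and 4.79 FPKM in HCC827, a difference of -1.83. Of its exon bases, 72.5% overlap NOB1, the gene on its other side, so that its reads are uncertain. All calls of the 11 genes named in this and the preceding paragraph held under both rescalings.

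Few genes of noncoding RNA turnover were in the table. Of 48 names covering the nuclear exosome, its adaptors, Integrator and early termination, 5 were listed, and 1 was called higher and none lower, beside 24.7% and 19.7% of all tested genes. CSTF2, a subunit of the cleavage stimulation factor, had 33.27, 35.77 and 33.07 FPKM in HCC827_Er, against 13.48, 15.70 and 14.67 FPKM in HCC827, with no overlap and a difference of 1.17 (SE 0.080, adjusted p = 1.37e-06). PABPN1, the nuclear poly(A)-binding protein, had 0.67 and NCBP3, a cap-binding protein, had 0.90. MPHOSPH6, an exosome cofactor, had -0.69 and TENT4B, a poly(A) polymerase that marks RNA for the exosome, had -0.93. The median of the 5 was 0.67, against 0.43 over all tested genes. These calls moved with the scaling: median-ratio rescaling called MPHOSPH6 and TENT4B lower and no gene higher, and sum rescaling called CSTF2 and NCBP3 higher. Without HCC827 replicate 1, TENT4B was called lower too, so that 2 were called.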

How the data were processed

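RNA of 3 HCC827_Er and 3 HCC827 samples was made into libraries with an Illumina TruSeq kit and sequenced, per the labels' protocols. The deposited file is a table of FPKM per gene and library, made by the authors with fastp, HISAT2 and StringTie according to the submitters' processing notes. These also name the builds GRCh38.p14 and hg19, with no role for either. The sources used here give no tool version, gene annotation, strand handling or rule for listing a gene. Because FPKM is relative to the mapped fragments of a library, abundant transcripts lower all other values, and it holds no counts, depth or counting error.

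Symbols were matched by Ensembl identifier for 6636 of 6641 genes, and positions, types and exon overlaps come from GENCODE 29. The 5276 genes with at least 1 FPKM in 3 or more of 6 libraries were fitted in limma 3.58.1 (R 4.3.3) on log2(FPKM + 1), with trend and no covariates, and 1365 were set aside. The test was checked on simulated data. Changes in the log2 ratio, with 1 FPKM added to each gene, were tested per pair with a two-sided exact permutation test (scipy 1.17.1).

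Pairs and genes were named by rule: all pairs with both genes tested, with every library's value for up to 12 same-way pairs of the largest difference and all pairs called oppositely, the 12 called genes with the largest difference in each direction and at least 2 FPKM in the higher line, ATP13A3-DT, up to 6 pairs with 1 gene called and the largest gap, and called turnover genes. Genes outside this rule (SLC25A25-AS1, the low pairs of DPP4-DT and TPM1-AS, the exceptions IER5L-AS1 and RNF217-AS1, ANKRD42-DT) were named after their values were seen. A few pairs covered by it are counted but not reported here by name. The genes, lists and tests were chosen with earlier results of these data known. Alternatives were other scalings, pseudocounts, minimum FPKM, size limits, limma settings, the replicate block and leaving out each library. Same-numbered libraries did not deviate together (correlations of 0.106, -0.022 and 0.049), so the numbers pair no samples.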

Additional observations from a re-analysis of the deposited data

How the results depend on the processing

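Under 18 alternatives none of the 160 named genes changed direction where it was tested, but a minimum of 5 FPKM left 95 of them to test. Apart from the leave-one-out and replicate block counts, which are given whether they moved or not, the counts below moved by more than 1.5 times. The cause was not tested except where a stricter limit, fewer genes or a wider one follows from the setting itself. A minimum of 5 FPKM gave 9 antisense and divergent genes called higher and 24 lower, 11 same-way pairs, 1 opposite pair, 13 pairs with ratios apart, and 867 of all genes higher. With no size limit it was 68 and 124, 65 pairs, 8 opposite pairs, 5 turnover genes, and 2672 higher and 2515 lower of all genes. A pseudocount of 5 gave 5 and 10, 4 pairs, 0 opposite pairs, 0 turnover genes, and 579 and 506 of all genes, and a pseudocount of 0.1 gave 49 higher and 2 turnover genes. Testing against a log2 difference of 1 gave 11 and 30, 19 pairs, 0 opposite pairs, 0 turnover genes, and 827 and 664 of all genes. Median-ratio rescaling gave 86 lower, 1657 of all genes lower and 2 turnover genes. Sum rescaling gave 42 higher and 2 turnover genes, and quantile normalization 1 opposite pair and 2 turnover genes. Without a minimum FPKM 78 pairs had ratios apart. Pairs with no exon overlap alone gave 11 same-way pairs and 0 opposite pairs. Leaving out 1 library in turn gave 24 to 27 higher, 53 to 61 lower, 30 to 34 same-way pairs, 0 to 2 opposite pairs, 44 to 47 pairs with ratios apart and 1 to 2 turnover genes. Replicate numbers do not pair these samples. A fit with the replicate number as a block gave 24 and 56 genes, 32 same-way and 2 opposite pairs, 1 turnover gene, and 1304 and 1041 of all genes, and changed no call among the named genes.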
